A study of Caenorhabditis elegans with 17 samples.

Results

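The comparison described here asks what ash-2 RNAi adds in worms that are already on hsf-1 RNAi. It sets 4 libraries of Caenorhabditis elegans fed ash-2 + hsf-1 RNAi against 4 libraries fed hsf-1 RNAi, 8 of the 17 libraries of the series. Libraries were put in groups by their labels. All animals carried rmIs133 [unc-54p::Q40::YFP], a body wall muscle transgene for a polyglutamine protein fused to YFP. They were whole day 1 adults, 96 h old and kept at 20 °C, laid as eggs in a timed window onto plates of E. coli HT115 (DE3) carrying the RNAi clone. The parents of the ash-2 + hsf-1 animals had themselves been kept on ash-2 RNAi, which is not stated for the parents of the hsf-1 animals, so the parents' exposure and that of the animals cannot be told apart. The same ash-2 clone without hsf-1 RNAi was measured in 4 ash-2 libraries, also from parents on ash-2 RNAi, against 5 libraries of L4440, the empty vector. Each library is labelled as a biological replicate. How the 2 clones were mixed on the ash-2 + hsf-1 plates is not given in the sources used here.

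ASH-2 is a subunit of the COMPASS complex, which methylates lysine 4 of histone H3 at active promoters. In worms its loss in the germline is known to extend lifespan and to change fat metabolism. HSF-1 is the transcription factor of the heat shock response and also drives chaperone and developmental genes in unstressed animals. Day 1 adults hold a germline that has stopped making sperm and makes oocytes, a cuticle laid down at the last molt, and an intestine that makes yolk.

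Levels of the targeted transcripts came first. Transcripts of ash-2 (Y17G7B.2, on chromosome II, 11979838 to 11989050, build WBcel235) had 7.85, 11.6, 3.92 and 10.6 FPKM in the ash-2 + hsf-1 libraries, against 16.9, 17.4, 16.8 and 5.57 FPKM in the hsf-1 libraries. FPKM, the authors' unit, is a fragment count scaled to transcript length and library size. The library labelled hsf-1 replicate 4 thus had an ash-2 level inside the range of the ash-2 + hsf-1 libraries. Means were 8.47 ± 3.42 FPKM in ash-2 + hsf-1 and 14.1 ± 5.72 FPKM in hsf-1 (SD, n = 4 each; exact two-sided permutation test, p = 0.114, 0.229 adjusted over the 2 targets; the smallest p this design allows is 0.0286). Without hsf-1 replicate 4 the hsf-1 mean was 17 ± 0.320 FPKM and the groups did not overlap (exact permutation test, adjusted p = 0.0286, n = 4 and 3, the smallest that 35 arrangements allow). That library held the only hsf-1 value inside the ash-2 + hsf-1 range, so leaving it out fixed this separation and this p. Leaving out any other single library gave adjusted p values of 0.229 to 0.514 by the same test. The hsf-1 transcript (Y53C10A.12, chromosome I) had 9.78, 11.5, 6.05 and 11.7 FPKM in ash-2 + hsf-1 and 14.6, 13.01, 15.1 and 7.33 FPKM in hsf-1. Its means, 9.74 ± 2.60 and 12.5 ± 3.55 FPKM, were 32.6% and 41.9% of the L4440 mean, and their difference did not pass the exact permutation test (adjusted p = 0.257, n = 4 each). Again hsf-1 replicate 4 lay among the ash-2 + hsf-1 values, and without it the adjusted p of that exact permutation test was 0.0286. This p was fixed by the same choice. The test gave 0.257 to 0.514 when any other single library was left out. In the limma fit described below the log2 changes were -0.68 for ash-2 and -0.335 for hsf-1 (adjusted p = 0.48 and 0.67). With the number of detected genes as a covariate they were -0.17 and -0.01 (adjusted p = 0.53 and 0.97). Within their groups, ash-2 + hsf-1 replicate 3 and hsf-1 replicate 4 had the lowest level of both transcripts and the fewest detected genes. Whether these are linked was not tested.

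Libraries differed in how many genes they showed. Genes at an FPKM of at least 1 numbered 10591 to 12712 in ash-2 + hsf-1 and 10745 to 13066 in hsf-1, lowest in ash-2 + hsf-1 replicate 3 and hsf-1 replicate 4. The 10 highest genes held 11.01% of the summed FPKM in ash-2 + hsf-1 replicate 4 and 6.52% to 8.86% in the other 7 libraries. Over the tested genes of the 8 libraries, the first principal component (55.5% of the variance) set apart hsf-1 replicate 4 and ash-2 + hsf-1 replicates 3 and 4 from the rest. The second component (21.1%) separated all 4 ash-2 + hsf-1 libraries from all 4 hsf-1 libraries, hsf-1 replicate 4 included. Some of the counts below are therefore also given without replicate 3 of ash-2 + hsf-1 and replicate 4 of hsf-1 (2 libraries left out), and without replicate 4 of ash-2 + hsf-1 as well (3 left out). Of 18 muscle markers 0 passed the limma test (4 were lower at an unadjusted p under 0.05), and their summed level was 6538 to 7866 FPKM in ash-2 + hsf-1 and 6979 to 8118 FPKM in hsf-1.

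More genes fell than rose when ash-2 RNAi was added. Of 13084 genes tested, 168 (1.28%) were higher and 1102 (8.42%) lower in ash-2 + hsf-1 than in hsf-1, at a limma p adjusted by Benjamini-Hochberg under 0.05 on log2(FPKM + 0.5). The median log2 change over all genes was -0.04. Without the 2 libraries the counts were 198 higher and 1495 lower, with a median of -0.18, and without the 3 they were 342 and 1162. Single libraries also set the size: the lower calls numbered 703 without hsf-1 replicate 3 and 1925 without hsf-1 replicate 4, and the higher calls 88 without hsf-1 replicate 3, 98 without ash-2 + hsf-1 replicate 1, 64 fewer than 168 without hsf-1 replicate 2, and 301 without ash-2 + hsf-1 replicate 4. The share of calls that were higher was 13.2%; it was 36.5% after quantile normalization (668 higher, 1164 lower) and 63.6% with the number of detected genes as a covariate (2949 higher, 1686 lower).

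**Figure D1:**
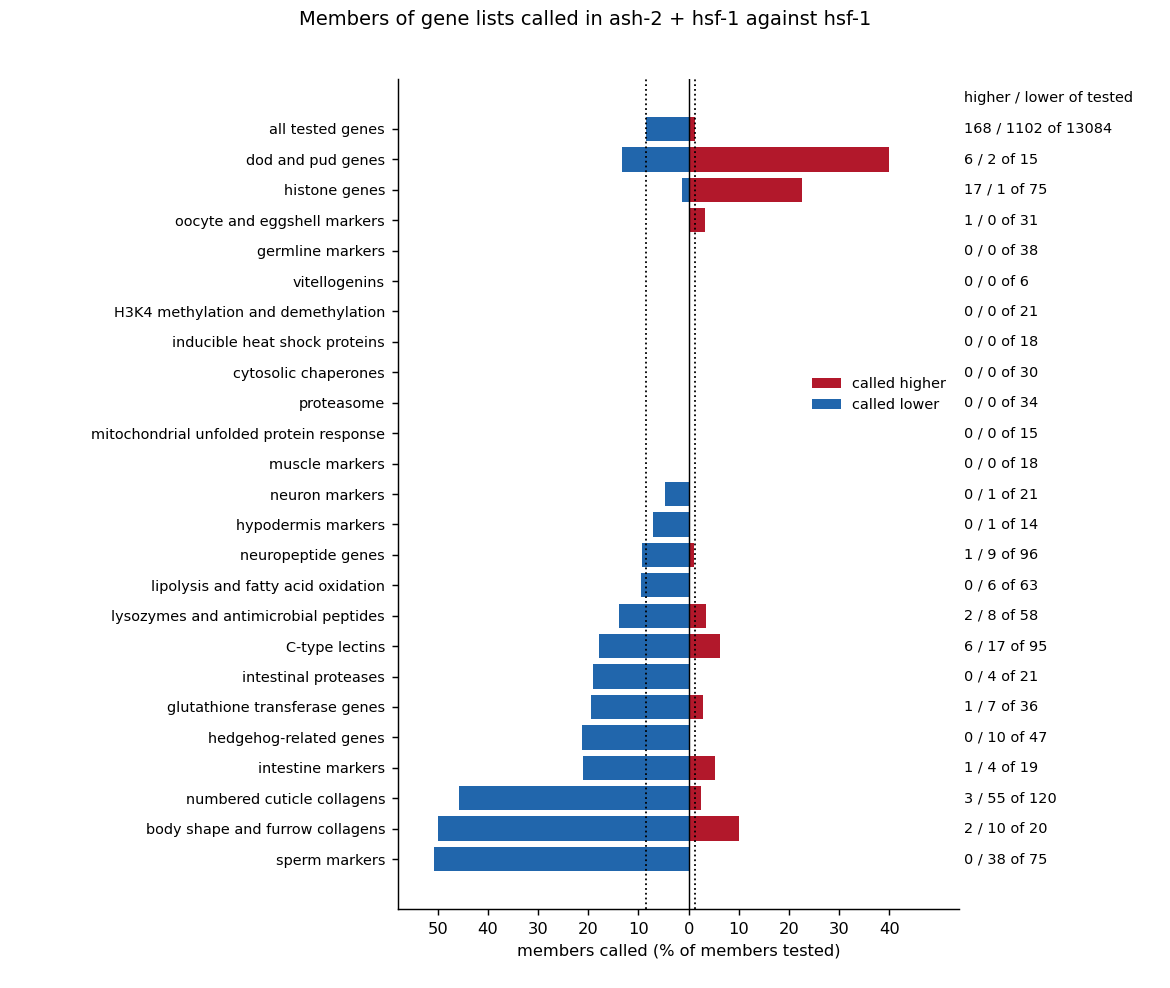
Share of tested members called higher (red, to the right) or lower (blue, to the left) in ash-2 + hsf-1 than in hsf-1, for all tested genes and 24 gene lists; the dotted lines mark the shares over all tested genes, 1.28% and 8.42%, and the counts are at the right. Sperm markers and the collagen lists have the longest bars to the left, and dod and pud genes and histone genes the longest to the right.

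The largest increase among the genes named by rule was in a cluster of pud genes on chromosome V, named for proteins that are more abundant in insulin receptor (daf-2) mutants. The pud-3 gene (F15E11.15, chromosome V, 2324634 to 2325152) had 24.7, 31.9, 25.9 and 14.3 FPKM in ash-2 + hsf-1, against 1.23, 0.898, 0.507 and 1.19 FPKM in hsf-1. Every ash-2 + hsf-1 library was above every hsf-1 library, with a log2 change of 4.06 ± 0.30 (SE, adjusted p = 3.6e-06). pud-1.1 (2330429 to 2330930) had 133, 151, 142 and 43.95 FPKM in ash-2 + hsf-1 and 12.9, 9.50, 9.07 and 14.7 FPKM in hsf-1. Its neighbour pud-1.2 (2322038 to 2322566) gave nearly the same values, 112 ± 46.98 FPKM in ash-2 + hsf-1 and 11 ± 2.57 FPKM in hsf-1 (SD, n = 4 each); the copies are near-identical, so how reads were shared between them is uncertain. The same holds for pud-2.1 (2329444 to 2329954) and pud-2.2 (2323014 to 2323524), whose log2 changes were 2.97 ± 0.62 and 2.97 ± 0.66. ash-2 + hsf-1 replicate 4 had the lowest level of each of these 5 genes within its group, and it still exceeded every hsf-1 library. Of 15 tested dod and pud genes, 6 rose and 2 fell. All 6 that rose were pud genes; the sixth, pud-4, named after its values were seen, averaged 9.12 ± 5.74 FPKM in ash-2 + hsf-1 and 0.300 ± 0.110 FPKM in hsf-1. The list also had 6 higher calls in each leave-one-out fit and without the 2 or the 3 libraries. One that fell was dod-19, with 258 ± 53.4 FPKM in ash-2 + hsf-1 and 480.4 ± 37.1 FPKM in hsf-1 (log2 change -0.91 ± 0.13, adjusted p = 0.00044).

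Histone genes rose more often than the background of 1.28%. Of 75 tested, 17 (22.7%) were higher and 1 was lower in ash-2 + hsf-1, and 65 had a log2 change above 0, with a median of 0.60 against -0.04 over all genes. Without the 2 libraries 22 were higher, without the 3 libraries 14, after median-of-ratios scaling 5, and with the 8 compared libraries fitted alone 2. The shares of all genes called higher in these settings were 1.51%, 2.61%, 2.13% and 0.145%. With the detected gene covariate 28 were higher and 2 lower, beside 22.5% and 12.9% of all genes. The list medians relative to L4440 overlapped between the groups, at 0.13 to 0.96 in ash-2 + hsf-1 and -0.22 to 0.42 in hsf-1. Leaving out single libraries gave 11 (without hsf-1 replicate 2) to 27 (without hsf-1 replicate 4). The linker histone gene hil-7 (C01B10.5, chromosome IV, 6646312 to 6646972) had 70.4, 55.8, 64.2 and 55.03 FPKM in ash-2 + hsf-1 and 15.96, 12.25, 5.34 and 21.5 FPKM in hsf-1. The groups were far apart, with a log2 change of 2.26 ± 0.30 (adjusted p = 0.00028). his-24, which encodes the main linker histone H1, had 250.2 ± 13.4 FPKM in ash-2 + hsf-1 and 125 ± 42.9 FPKM in hsf-1 (adjusted p = 0.0014, or 0.0646 after median-of-ratios scaling). The core histone gene his-11 had 15.9 ± 3.16 FPKM in ash-2 + hsf-1 and 7.23 ± 2.14 FPKM in hsf-1 (adjusted p = 0.0051, or 0.0525 after that scaling). Core histone genes have near-identical copies, and their mRNAs mostly lack the poly(A) tail that an mRNA kit selects, so single members are uncertain. The member that fell was his-70, an H3 variant gene, with 1.83 ± 0.355 FPKM in ash-2 + hsf-1 and 6.41 ± 1.39 FPKM in hsf-1 (log2 change -1.56 ± 0.26, adjusted p = 0.001). Of 38 germline markers 0 were called by limma (5 were higher at an unadjusted p under 0.05); 18 were higher with the detected gene covariate, which called 22.5% of all genes higher, and 2 after quantile normalization or without hsf-1 replicate 4. Their summed level was 2998 to 3723 FPKM in ash-2 + hsf-1 and 2708 to 2942 FPKM in hsf-1. Of 31 oocyte and eggshell markers 1 rose; 5 were higher without ash-2 + hsf-1 replicate 4 or without the 3 libraries, 3 without ash-2 + hsf-1 replicate 2 or hsf-1 replicate 4, 6 after quantile normalization, and 0 without any 1 of the other 5 libraries. Of 14 embryo zygotic markers 1 rose; 4 were higher without the 3 libraries, 6 after quantile normalization, 7 with the covariate, and 0 without replicate 1 or 2 of ash-2 + hsf-1 or replicate 2 or 3 of hsf-1. Summed levels were 142.5 to 206.9 FPKM in ash-2 + hsf-1 and 97.9 to 155.3 FPKM in hsf-1 for the embryo list. No germline, oocyte or embryo marker tested was at 0 in all libraries of a group, and their part in the histone result was not tested.

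**Figure D2:**
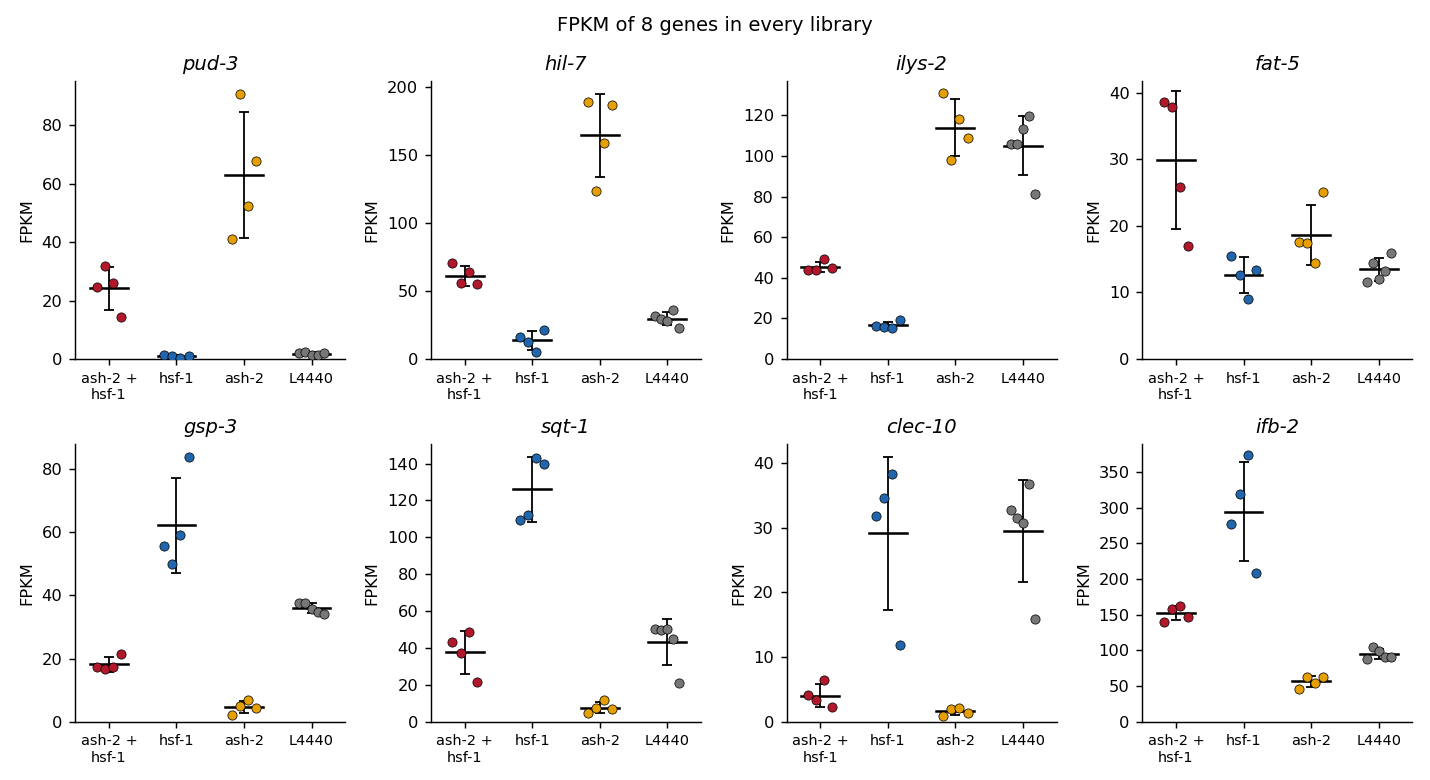
FPKM of 8 genes in every library of the 4 groups (points), with the group mean (line) and SD (bars); ash-2 + hsf-1, hsf-1 and ash-2 have 4 libraries each and L4440 has 5. In the top row (pud-3, hil-7, ilys-2, fat-5) all ash-2 + hsf-1 libraries lie above all hsf-1 libraries, and in the bottom row (gsp-3, sqt-1, clec-10, ifb-2) all lie below them.

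Other genes with large increases each came from a different family. nas-3, an astacin-type metalloprotease gene, had 11.3, 19.4, 10.1 and 8.65 FPKM in ash-2 + hsf-1, against 1.46, 1.26, 0.982 and 2.48 FPKM in hsf-1 (log2 change 2.64 ± 0.31, adjusted p = 0.00014). The collagen gene dpy-14 had 134, 122, 57.7 and 34.3 FPKM in ash-2 + hsf-1 and 29.2, 13.1, 7.73 and 26.4 FPKM in hsf-1. The ranges did not overlap, although ash-2 + hsf-1 replicate 4 came close to the highest hsf-1 value (log2 change 2.14 ± 0.40, adjusted p = 0.0027). The cuticlin gene cut-3 had 18.5 ± 11.02 FPKM in ash-2 + hsf-1 and 3.73 ± 2.02 FPKM in hsf-1 (adjusted p = 0.0074). fat-5, a desaturase that acts on palmitic acid, had 38.6, 37.9, 25.8 and 17.04 FPKM in ash-2 + hsf-1 and 15.5, 12.5, 9.03 and 13.4 FPKM in hsf-1, a log2 change of 1.16 ± 0.26 (adjusted p = 0.0087). Of the 26 genes for fatty acid synthesis, desaturation and elongation 2 rose and 2 fell (7.69% each, beside 1.28% and 8.42% of all genes). The higher count was 3 without ash-2 + hsf-1 replicate 4, and 1 without any 1 of the other 7 libraries.

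Sperm genes fell more often than the background. Of 75 sperm markers tested, 38 were lower and 0 higher in ash-2 + hsf-1 (50.7%, against 8.42% of all genes), 73 had a log2 change below 0, and the list median was -1.23. The count was 23 without the 2 libraries, 47 without the 3, 24 after median-of-ratios scaling, and 17 with the 8 libraries fitted alone. It was 54 without ash-2 + hsf-1 replicate 4, whose list median stood apart within its group, 36 without hsf-1 replicate 4, and 22 to 27 without each of the other 6 libraries in turn. The major sperm protein gene msp-77, whose product builds the sperm's crawling cytoskeleton, had 66.4, 54.5, 74.3 and 114 FPKM in ash-2 + hsf-1, against 199, 161, 171 and 286 FPKM in hsf-1 (log2 change -1.41 ± 0.26, adjusted p = 0.0024). Replicate 4 was highest in each group, and the groups did not overlap. msp genes are near-identical copies, and msp-74 was low throughout, at 0.144 ± 0.0837 FPKM in ash-2 + hsf-1 and 2.25 ± 0.565 FPKM in hsf-1.

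Other called members of the sperm list encode enzymes and further sperm proteins. gsp-3 (W09C3.6), a sperm protein phosphatase, had 17.2, 16.6, 17.2 and 21.5 FPKM in ash-2 + hsf-1, against 55.7, 49.8, 59.2 and 83.9 FPKM in hsf-1 (log2 change -1.73 ± 0.25, adjusted p = 0.00045). Its close relative gsp-4 averaged 14.4 ± 3.64 FPKM in ash-2 + hsf-1 and 51.3 ± 12.05 FPKM in hsf-1. The sperm-specific gene ssp-35 averaged 12.22 ± 0.522 FPKM in ash-2 + hsf-1 and 34.3 ± 6.16 FPKM in hsf-1. spe-18, which is needed to form sperm and is in none of the lists, averaged 12.57 ± 1.096 FPKM in ash-2 + hsf-1 and 45.9 ± 10.7 FPKM in hsf-1. The Argonaute genes alg-3 and alg-4, which carry small RNAs of the male germline, averaged 1.99 ± 0.542 and 2.01 ± 0.328 FPKM in ash-2 + hsf-1, against 6.82 ± 0.848 and 8.26 ± 0.881 FPKM in hsf-1. They were the 2 called members among 47 tested genes of small RNA pathways (4.26%, below the background of 8.42%). Without hsf-1 replicate 4, when 14.7% of all genes were lower, 4 were lower. With the covariate 19 were higher and 4 lower, beside 22.5% and 12.9% of all genes. fog-3, which directs germ cells to sperm fate, was lower at 4.05 ± 0.553 FPKM in ash-2 + hsf-1 and 7.86 ± 1.395 FPKM in hsf-1 (adjusted p = 0.0092). It was the only called gene of 21 in germline sex determination (4.76%). With the covariate 9 of the 21 were higher, beside 22.5% of all genes. In whole animals, fewer sperm and less RNA per sperm cannot be told apart. The summed level of the sperm list was 1746 to 5018 FPKM in ash-2 + hsf-1 and 4826 to 8999 FPKM in hsf-1; it was 347.7 to 899.8 FPKM in ash-2 and 3401 to 3736 FPKM in L4440.

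Cuticle collagens fell as well. Of 120 numbered cuticle collagens tested, 55 were lower and 3 higher in ash-2 + hsf-1 (45.8% and 2.50%), with a median log2 change of -0.85. The lower count was 50 without the 2 libraries, 46 without the 3, 36 after median-of-ratios scaling, 31 with the 8 libraries fitted alone and 38 to 59 when single libraries were left out. The higher count was 1 without ash-2 + hsf-1 replicate 1 or 2 or hsf-1 replicate 3, 6 without ash-2 + hsf-1 replicate 4, 5 without hsf-1 replicate 4 and 8 without the 3 libraries. Of 20 collagens that shape the body or the cuticle furrows, 10 fell and 2 rose, with a median of -1.17. col-104 (F58F6.1, chromosome IV, 1353636 to 1355305) had 57.3, 61.6, 58.3 and 40.8 FPKM in ash-2 + hsf-1, against 172, 203, 242 and 186 FPKM in hsf-1. No library of one group came near the other, and the log2 change was -1.88 ± 0.17 (adjusted p = 2.7e-05). The numbered collagens col-17, col-48, col-97 and col-144 had log2 changes between -1.89 and -1.41, for example 87.3 ± 6.40 FPKM of col-97 in ash-2 + hsf-1 and 257 ± 31.3 FPKM in hsf-1.

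Among the body shape collagens, sqt-1 (B0491.2, chromosome II) had 43.5, 37.04, 48.4 and 21.3 FPKM in ash-2 + hsf-1 and 109, 112, 143 and 139.7 FPKM in hsf-1 (log2 change -1.79 ± 0.31, adjusted p = 0.0016). dpy-13 averaged 186 ± 38.7 FPKM in ash-2 + hsf-1 and 569 ± 107 FPKM in hsf-1, and dpy-5 averaged 158 ± 41.1 and 481 ± 95.6 FPKM. Mutations in these genes shorten the worm, while rol-6, known for mutants that roll, averaged 27.3 ± 12.22 FPKM in ash-2 + hsf-1 and 92.7 ± 32.01 FPKM in hsf-1 (adjusted p = 0.0098). The 2 that rose included dpy-14, above. In L4440 sqt-1 averaged 43.2 ± 12.7 FPKM and dpy-13 averaged 153 ± 34.1 FPKM (SD, n = 5).

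Genes that work beside the collagens moved in smaller numbers. The hedgehog-related genes encode secreted proteins and patched-related receptors that in worms serve the epidermis and its molts. Of 47 tested, 10 fell (21.3%, beside 8.42% of all genes) and 0 rose. The ground-like genes grl-16 and grl-5 averaged 59.0 ± 5.59 and 9.71 ± 2.53 FPKM in ash-2 + hsf-1, against 122 ± 30.03 and 21.9 ± 1.64 FPKM in hsf-1. The patched-related gene ptr-16 averaged 1.41 ± 0.449 FPKM in ash-2 + hsf-1 and 3.69 ± 0.600 FPKM in hsf-1 (adjusted p = 0.002). The list's count was 9 without the 2 libraries, 7 without the 3, 4 without hsf-1 replicate 1, 5 without ash-2 + hsf-1 replicate 3, 6 without hsf-1 replicate 2 or 3, and 2 with the 8 libraries fitted alone. Of 22 astacin metalloproteases 4 fell (18.2%) and 1 rose (4.55%), beside 8.42% and 1.28% of all genes. Among the 4 was nas-9 (13.3 ± 1.99 FPKM in ash-2 + hsf-1, 28.6 ± 2.16 FPKM in hsf-1). The lower count was 1 without hsf-1 replicate 3, 9 without hsf-1 replicate 4, and 2 without hsf-1 replicate 1 or 2 or ash-2 + hsf-1 replicate 3 or 4. Cuticlins, apical matrix and molting genes had 3 higher and 4 lower of 43 (6.98% and 9.3%, beside 1.28% and 8.42% of all genes). Without hsf-1 replicate 3 these counts were 1 and 0, and without hsf-1 replicate 4 they were 3 and 8. The lower count was 1 without hsf-1 replicate 1 or 2 or ash-2 + hsf-1 replicate 3 or 4, and the higher count 1 without replicate 1 or 2 of either group. Markers of the hypodermis, the tissue that makes the cuticle, were called in 1 of 14 cases; that one was rol-6, itself a collagen. Their summed level was 750.1 to 2676 FPKM in ash-2 + hsf-1 and 1941 to 2482 FPKM in hsf-1, and 0 of them were at 0 in all libraries of a group.

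**Figure D3:**
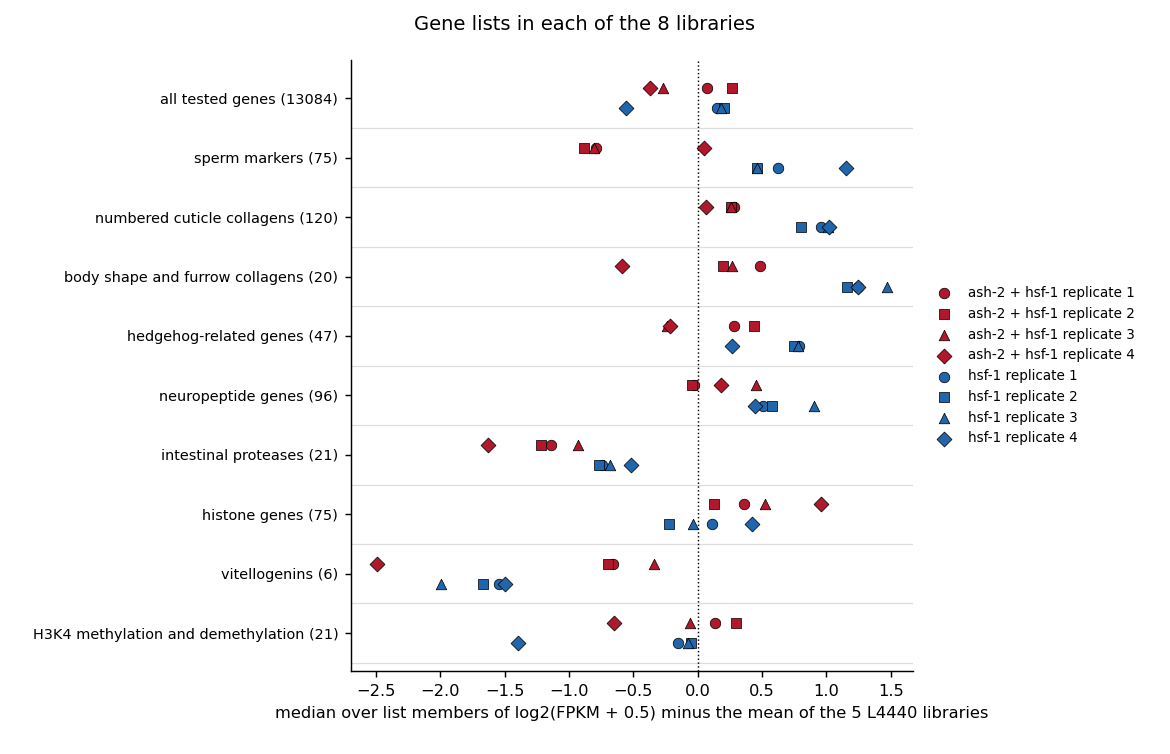
Median over the members of each list of log2(FPKM + 0.5) minus the mean of the 5 L4440 libraries, for each ash-2 + hsf-1 library (red, upper row of each list) and each hsf-1 library (blue, lower row); the number of members is in brackets. The sperm, collagen and intestinal protease medians of the groups do not overlap, whereas the vitellogenin median of ash-2 + hsf-1 replicate 4, at -2.50, lies below all the others of its group.

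Several structural and digestive genes of the intestine fell. ifb-2, an intermediate filament of the intestinal lining, had 140.3, 158, 162 and 147 FPKM in ash-2 + hsf-1, against 277, 319, 373 and 208 FPKM in hsf-1 (log2 change -0.92 ± 0.15, adjusted p = 0.0011). Its partner ifc-2 averaged 51.2 ± 12.26 FPKM in ash-2 + hsf-1 and 106 ± 11.3 FPKM in hsf-1. Of 21 intestinal proteases 4 fell and 0 rose, all aspartic proteases. asp-1 had 594, 433, 850.2 and 777 FPKM in ash-2 + hsf-1 and 1181, 1012, 1227 and 1708 FPKM in hsf-1 (log2 change -0.97 ± 0.22, adjusted p = 0.0089). asp-2, asp-5 and asp-6 had log2 changes of -0.81, -0.94 and -1.28. After median-of-ratios scaling 1 protease was called, not one of these 4, whose adjusted p values were then 0.0585 to 0.242; without the 2 libraries 7 were called, without the 3 libraries 9, and with the 8 libraries fitted alone 0. The intestinal metallothionein mtl-2 rose, with 35.95 ± 11.6 FPKM in ash-2 + hsf-1 and 17.4 ± 2.51 FPKM in hsf-1 (adjusted p = 0.013), but its adjusted p was 0.115 after median-of-ratios scaling. Of all 19 intestine markers, which include ifb-2, ifc-2, asp-1 and mtl-2, 4 fell (21.1%) and 1 rose (5.26%). Their summed level was 2281 to 3327 FPKM in ash-2 + hsf-1 and 3637 to 4577 FPKM in hsf-1.

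Vitellogenins, the yolk proteins of the intestine, depended on 1 library. vit-5 had 1222, 1245, 1558 and 313 FPKM in ash-2 + hsf-1, against 617, 578, 450.5 and 636 FPKM in hsf-1. The first 3 ash-2 + hsf-1 libraries were above all hsf-1 libraries and replicate 4 was below all of them. None of the 6 vitellogenin genes passed the limma test, and 0 had an unadjusted p under 0.05; without ash-2 + hsf-1 replicate 4, 5 of 6 were higher (vit-5 log2 change 1.24, adjusted p = 0.00031).

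Genes of immunity moved in each direction. Of 95 C-type lectins, secreted or membrane proteins with sugar-binding domains, 17 fell (17.9%) and 6 rose (6.32%), beside 8.42% and 1.28% of all genes. clec-10 (C03H5.1, chromosome II, 402665 to 404180) had 4.16, 3.33, 6.43 and 2.24 FPKM in ash-2 + hsf-1, against 31.8, 34.6, 38.4 and 11.8 FPKM in hsf-1. It had the lowest log2 change of the genes named by rule, -2.66 ± 0.38 (adjusted p = 0.00044), and hsf-1 replicate 4 was the lowest of its group. clec-67 averaged 4.71 ± 1.70 FPKM in ash-2 + hsf-1 and 20.9 ± 3.36 FPKM in hsf-1, and clec-5 averaged 26.8 ± 8.14 and 77.96 ± 11.5 FPKM. The lectin counts were 28 lower and 6 higher without the 2 libraries, 20 and 12 without the 3, 28 and 8 without hsf-1 replicate 4, and 8 and 1 with the 8 libraries fitted alone.

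Of 58 lysozymes and antimicrobial peptides 8 fell and 2 rose (13.8% and 3.45%). The lower count was 4 without hsf-1 replicate 1, 5 without hsf-1 replicate 2 or 3, 12 without hsf-1 replicate 4 and 13 without the 3 libraries. A pair of neighbouring lysozyme genes on chromosome IV moved in opposite directions. ilys-2 (2467678 to 2468879) had 43.7, 43.7, 49.2 and 44.6 FPKM in ash-2 + hsf-1, against 16.1, 15.8, 15.2 and 19.2 FPKM in hsf-1 (log2 change 1.43 ± 0.14, adjusted p = 3.2e-05). ilys-3 (2464456 to 2465443), an invertebrate-type lysozyme of the same family, had 14.3, 12.17, 19.7 and 5.93 FPKM in ash-2 + hsf-1 and 35.3, 36.1, 41.8 and 43.9 FPKM in hsf-1 (log2 change -1.66 ± 0.30, adjusted p = 0.0021). Neither pair of ranges overlapped. The saposin-like gene spp-9 was low but rose, with 1.65, 1.57, 3.52 and 6.18 FPKM in ash-2 + hsf-1 and 0, 0.232, 0.104 and 0.172 FPKM in hsf-1 (adjusted p = 0.00017). The intracellular pathogen response list had 1 lower (2.63%, below the 8.42% of all genes) and 0 higher of 38. Without hsf-1 replicate 4, when 14.7% of all genes were lower, it had 3 lower.

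Lipid, one-carbon and detoxification lists differed in how often their members were called. Among 63 genes that break down fat, by lipolysis or oxidation, 6 (9.52%) were lower and 0 higher. Over all genes 8.42% were lower and 1.28% higher, so this list was called lower about as often as all genes. The lysosomal lipase lipl-5 had 13.9, 11.95, 15.1 and 11.1 FPKM in ash-2 + hsf-1, against 30.5, 32.4, 34.1 and 53.5 FPKM in hsf-1 (log2 change -1.47 ± 0.18, adjusted p = 0.00016). acs-10, an acyl-CoA synthetase, averaged 2.22 ± 0.297 FPKM in ash-2 + hsf-1 and 9.22 ± 1.07 FPKM in hsf-1. Of 26 genes of the methionine cycle and phosphatidylcholine synthesis 4 fell (15.4%, beside 8.42% of all genes) and 0 rose. The lower count was 2 without ash-2 + hsf-1 replicate 3 or 4 or hsf-1 replicate 1 or 2. The genes that fell included cbs-2, a cystathionine synthase, at 0.941 ± 0.212 FPKM in ash-2 + hsf-1 and 3.86 ± 1.59 FPKM in hsf-1. gln-2, a glutamine synthetase outside these lists, fell to 4.20 ± 1.35 FPKM in ash-2 + hsf-1, against 19.4 ± 1.75 FPKM in hsf-1 (log2 change -2.13 ± 0.27, adjusted p = 0.00021). Of 36 glutathione transferases 7 fell (19.4%) and 1 rose, and gst-20 averaged 25.5 ± 2.87 FPKM in ash-2 + hsf-1 and 58.6 ± 9.98 FPKM in hsf-1. The lower count was 4 without hsf-1 replicate 1 or 2, 3 without hsf-1 replicate 3, 11 without hsf-1 replicate 4 or without the 2 libraries, and 12 without the 3. Of 22 SKN-1 and oxidative stress targets 2 fell (9.09%, near the 8.42% of all genes) and 1 rose. The lower count was 1 without ash-2 + hsf-1 replicate 4 or hsf-1 replicate 1, 2 or 3, and 4 without hsf-1 replicate 4. Among those that fell was the nitrilase nit-1, at 4.36 ± 1.41 FPKM in ash-2 + hsf-1 and 14.97 ± 4.43 FPKM in hsf-1. The gene that rose was the mitochondrial superoxide dismutase sod-3, at 8.39 ± 1.104 FPKM in ash-2 + hsf-1 and 4.49 ± 1.68 FPKM in hsf-1. The sod-3 call (adjusted p = 0.019) was lost without ash-2 + hsf-1 replicate 1 or hsf-1 replicate 3. No cytochrome P450 gene of 54 and no UDP-glycosyltransferase gene of 54 was called by limma; at an unadjusted p under 0.05, 2 and 0 were higher and 3 and 4 lower. Without hsf-1 replicate 4, when 14.7% of all genes were lower, 7 P450 and 9 glycosyltransferase genes were lower. With the detected gene covariate, which called 22.5% of all genes higher and 12.9% lower, 15 P450 genes were higher and 2 lower. The glycosyltransferase genes were then 10 higher and 3 lower. After quantile normalization, 4 P450 genes were higher and 3 lower, and 3 glycosyltransferase genes were higher and 4 lower. That setting called 5.11% of all genes higher and 8.9% lower.

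Neuropeptide genes, whose products neurons secrete, were called about as often as all genes. Of 96 tested, 9 fell (9.38%) and 1 rose (1.04%), beside a background of 8.42% and 1.28%, while 88 had a log2 change below 0, beside 6960 of 13084 over all genes, and the median was -0.50. The lower count was 24 without the 2 libraries, 29 without the 3, 15 without ash-2 + hsf-1 replicate 3, 21 without hsf-1 replicate 4, 5 without ash-2 + hsf-1 replicate 1, 4 without hsf-1 replicate 3, 30 with the detected gene covariate and 0 with the 8 libraries fitted alone. flp-10 had 32.99, 30.1, 38.3 and 27.04 FPKM in ash-2 + hsf-1, against 49.9, 45.9, 52.6 and 50.04 FPKM in hsf-1 (log2 change -0.63 ± 0.14, adjusted p = 0.0076). nlp-67 averaged 6.14 ± 1.396 FPKM in ash-2 + hsf-1 and 12.9 ± 1.45 FPKM in hsf-1, and nlp-8 averaged 26.2 ± 5.99 and 49.2 ± 8.38 FPKM. The one that rose was nlp-39, at 2.36 ± 1.38 FPKM in ash-2 + hsf-1 and 0.193 ± 0.149 FPKM in hsf-1. Of 21 neuron markers 1 fell (4 without ash-2 + hsf-1 replicate 3, 3 without hsf-1 replicate 4, 2 without ash-2 + hsf-1 replicate 2 or hsf-1 replicate 1, and 0 without any 1 of the other 4); their summed level was 611.8 to 792.1 FPKM in ash-2 + hsf-1 and 788.3 to 904.5 FPKM in hsf-1, and its part in the neuropeptide counts was not tested. Of 21 insulin-like peptides 2 fell (9.52%, near the background of 8.42%). The ins-4 gene averaged 7.74 ± 1.67 FPKM in ash-2 + hsf-1 and 19.6 ± 6.73 FPKM in hsf-1. Of 8 pharynx markers 3 fell (37.5%, beside 8.42% of all genes). That count was 0 without ash-2 + hsf-1 replicate 1 or 2 or hsf-1 replicate 2 or 3, 1 without ash-2 + hsf-1 replicate 4 or hsf-1 replicate 1 and after median-of-ratios scaling, and 2 without ash-2 + hsf-1 replicate 3.

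None of 18 inducible heat shock proteins, 30 chaperones of the cytosol, 34 proteasome genes, or 15 and 23 genes of the unfolded protein response in mitochondria and the endoplasmic reticulum passed the limma test. At an unadjusted p under 0.05 these were 1 higher heat shock protein, 2 lower endoplasmic reticulum genes, 1 higher proteasome gene and 0 of the others. With the detected gene covariate, 2 heat shock proteins, 2 cytosolic chaperones, 4 mitochondrial and 7 endoplasmic reticulum genes were higher and 0, 2, 1 and 2 lower. That covariate called 22.5% of all genes higher and 12.9% lower. The cytosolic chaperone hsp-90 had 958, 972, 1065 and 449 FPKM in ash-2 + hsf-1, against 976, 1093, 909.6 and 1587 FPKM in hsf-1. Its groups overlapped, with replicate 4 lowest in the one and highest in the other, and the 95% interval of the log2 change ran from -0.94 to 0.05 (adjusted p = 0.31). The small heat shock protein sip-1 averaged 1823 ± 196 FPKM in ash-2 + hsf-1 and 1452 ± 201 FPKM in hsf-1 (interval 0.04 to 0.62, adjusted p = 0.16). The proteasome subunit pbs-1 averaged 549 ± 189 FPKM in ash-2 + hsf-1 and 381 ± 69.4 FPKM in hsf-1 (interval 0.10 to 0.88, adjusted p = 0.12). These intervals leave room for changes of moderate size. Of 9 regulators around hsf-1, 1 fell, the zinc finger transcription factor pqm-1, with 43.6, 52.1, 45.6 and 37.7 FPKM in ash-2 + hsf-1 and 82.01, 82.1, 99.2 and 61.3 FPKM in hsf-1 (log2 change -0.84 ± 0.18, adjusted p = 0.0074).

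The H3K4 methylation machinery gave no limma call among 21 genes. Of these 21 genes 18 had a log2 change above 0, beside 6124 of 13084 over all genes. At an unadjusted p under 0.05, 3 were higher. The list's median log2 change was 0.344, but it depended on hsf-1 replicate 4. It was 0.048 without that library, 0.035 without the 2 libraries and 0.293 without the 3. With the detected gene covariate 14 were higher, beside 22.5% of all genes; 3 were higher after quantile normalization and 1 after median-of-ratios scaling. The demethylase gene lsd-1 had 8.66, 9.19, 9.13 and 8.01 FPKM in ash-2 + hsf-1, against 5.48, 6.09, 5.60 and 4.56 FPKM in hsf-1. Its groups did not overlap, and its log2 change was 0.64 ± 0.23 with an adjusted p of 0.092; after median-of-ratios scaling, quantile normalization, the detected gene covariate or the removal of 4 few-detected libraries it was 0.0029 to 0.039. The list's summed level was 617.4 to 757.2 FPKM in ash-2 + hsf-1 and 385.5 to 616.4 FPKM in hsf-1. The cyclin gene cyb-1 had the smallest adjusted p of the germline list, 0.077, at 313 ± 45.7 FPKM in ash-2 + hsf-1 and 244 ± 17.7 FPKM in hsf-1.

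The last question is whether ash-2 RNAi did the same with and without hsf-1 RNAi. The ash-2 and L4440 libraries are not shared with the comparison above. Both comparisons were tested in 1 fit that shares its estimate of spread for each gene, so their calls are not independent. Among ash-2 libraries, 546 genes (4.17%) were higher and 2024 (15.5%) lower than in L4440. The median log2 change over all genes was -0.318 in that comparison. Genes at an FPKM of at least 1 numbered 9401 and 9817 in ash-2 replicates 1 and 3, and 11170 and 11189 in replicates 2 and 4. The ash-2 transcript had 2.04 and 2.57 FPKM in replicates 1 and 3, and 8.68 and 8.54 FPKM in replicates 2 and 4. Of the 1102 genes that fell in ash-2 + hsf-1 against hsf-1, 919 also fell in ash-2 against L4440, which is 83.4% of the first list and 45.4% of the second. Of the 168 that rose, 107 also rose, 63.7% of the first list and 19.6% of the second. Without the 4 few-detected libraries the lower shares were 59.0% and 75.2% and the higher ones 46.3% and 29.6%; with the detected gene covariate they were 66.9% and 79.9%, and 46.6% and 59.8%. Across the 13084 genes the log2 changes had a Pearson r of 0.65, a description across genes, which are not independent replicates and share the depth of their libraries. Those 1102 genes, chosen by the first comparison, had a median log2 change of -1.23 in ash-2 + hsf-1 against hsf-1 and of -1.55 in ash-2 against L4440. The order of these medians depended on the setting, each time for the genes then called lower. They were -1.14 and -1.05 without the 4 few-detected libraries, and -1.03 and -0.95 after quantile normalization. After median-of-ratios scaling they were -1.13 and -1.37.

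**Figure D4:**
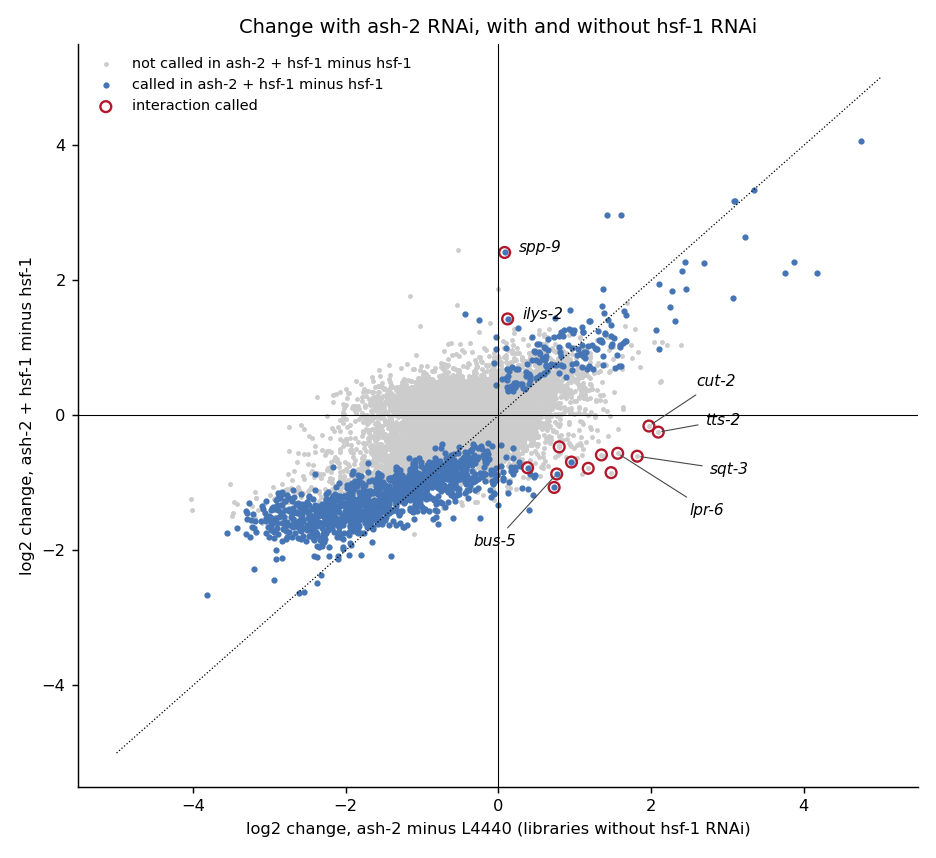
log2 change of each of 13084 genes in ash-2 + hsf-1 minus hsf-1 (vertical axis) against ash-2 minus L4440 (horizontal axis); blue points are called in ash-2 + hsf-1 minus hsf-1, red circles mark the 14 genes whose difference between the comparisons was called, and the dotted line marks equal change. Most circles lie at the lower right, where the change is above 0 without hsf-1 RNAi and below 0 with it. Not all of those changes below 0 were themselves called, for example that of cut-2 (limma adjusted p = 0.83). ilys-2 and spp-9 lie at the top centre.

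The lists gave their counts side by side. Sperm markers had 38 lower calls of 75 in ash-2 + hsf-1 against hsf-1 and 70 in ash-2 against L4440. Numbered collagens had 55 lower and 3 higher of 120 in the first comparison, and 62 lower and 10 higher in the second. Histone genes had 17 and 28 higher calls of 75. The interaction, the test of the difference between the changes, called 0 members of these 3 lists by limma. At an unadjusted p under 0.05 it was positive for 58 of the 75 sperm markers, positive for 8 and negative for 5 of the collagens, and positive for 2 and negative for 5 of the histone genes; over all genes 481 were positive and 352 negative. The sperm list had a median log2 change of -1.23 on top of hsf-1 RNAi and of -2.79 without it. pud-3 had 41.1, 90.6, 52.4 and 67.9 FPKM in ash-2 and 1.24 to 2.55 FPKM in L4440, a log2 change of 4.75 against 4.06 on top of hsf-1 RNAi (interaction -0.69, adjusted p = 0.70).

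The interaction was called in 14 of 13084 genes, 2 in the positive direction (0.0153%) and 12 in the negative (0.0917%). Among the 12 were genes of the cuticle and its apical matrix. sqt-3, a collagen, had 250.1, 223, 206 and 115 FPKM in ash-2 + hsf-1 and 273, 254, 339 and 300.3 FPKM in hsf-1; it had 601, 332, 432 and 359 FPKM in ash-2 and 136, 121, 135, 123 and 85.7 FPKM in L4440. All 4 ash-2 libraries were thus above all L4440 libraries, while all 4 ash-2 + hsf-1 libraries lay below all hsf-1 libraries, replicate 4 within the L4440 range (interaction -2.42 ± 0.32, adjusted p = 0.0059). tts-2 averaged 75.8 ± 18.3 FPKM in ash-2 + hsf-1, 90.3 ± 23.6 FPKM in hsf-1, 129 ± 28.4 FPKM in ash-2 and 29.4 ± 3.22 FPKM in L4440 (interaction -2.34 ± 0.28, adjusted p = 0.0029). The cuticlin gene cut-2, in the same order, averaged 99.97 ± 5.67, 114 ± 26.4, 205 ± 93.9 and 48.5 ± 4.90 FPKM (adjusted p = 0.014). The lipocalin-related gene lpr-6, whose family acts in the apical matrix, averaged 11.9 ± 1.75, 17.9 ± 3.21, 24.3 ± 0.544 and 8.23 ± 2.46 FPKM (adjusted p = 0.014). In ash-2 + hsf-1 minus hsf-1 itself, limma did not call sqt-3, tts-2, cut-2 or lpr-6 (adjusted p = 0.12, 0.60, 0.83 and 0.17). A fall of these genes on top of hsf-1 RNAi was therefore not shown. The genes called lower in that comparison and higher in ash-2 minus L4440 were bus-5, F46C5.1 and hhat-1. The lower call of F46C5.1 held in 2 of 8 leave-one-out fits, and those of bus-5 and hhat-1 in all 8. In this order, the limma adjusted p of the lower calls was 0.071, 0.21 and 0.012 after median-of-ratios scaling. It was 0.029, 0.11 and 0.060 after quantile normalization, and 0.065, 0.087 and 0.063 without the 3 libraries. bus-5, known for its effect on the worm surface, fell with hsf-1 RNAi (15.2 ± 2.103 FPKM in ash-2 + hsf-1, 28.2 ± 4.20 FPKM in hsf-1) and rose without it (log2 changes -0.87 and 0.76, interaction adjusted p = 0.034). Of 43 cuticlins, apical matrix and molting genes, 3 were called in the interaction, all in the negative direction.

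The 2 positive genes belong to the list of lysozymes and antimicrobial peptides. ilys-2 averaged 45.3 ± 2.66 FPKM in ash-2 + hsf-1, 16.6 ± 1.80 FPKM in hsf-1, 114 ± 14.04 FPKM in ash-2 and 105 ± 14.6 FPKM in L4440, with log2 changes of 1.43 on top of hsf-1 RNAi and 0.12 without it (interaction 1.31 ± 0.19, adjusted p = 0.014, or 0.40 after median-of-ratios scaling). spp-9 was listed at 0 in all 5 L4440 libraries and 3 of 4 ash-2 libraries (interaction 2.33 ± 0.40, adjusted p = 0.034). Without the 2 few-detected libraries of this comparison 3 genes were called in the interaction, tts-2 (adjusted p = 0.00086), sqt-3 and ilys-2 (0.029 each). The tts-2 call held in all 20 alternatives, sqt-3 and ilys-2 in 19 of 20 each, cut-2 in 17, lpr-6 in 16, bus-5 in 9 of 20 and spp-9 in 7 of 19.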

How the data were processed

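Whole-animal poly(A) RNA was sequenced from stranded libraries, per the labels' protocols. The authors deposited 1 table of FPKM values for 26786 genes and 17 libraries, which was used here; cutadapt, HISAT2, StringTie, DESeq2 and the build WBcel235 are named without roles or versions, per the submitters' processing notes. Fragment counts per library were not used here, so the depth behind each FPKM value is unknown and no counting interval is given; near-identical genes may share reads.

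The 13084 genes that reached 1 FPKM in 4 or more libraries were tested on log2(FPKM + 0.5) with limma 3.58.1 (lmFit, contrasts and eBayes with trend and robust) in R 4.3.3, in 1 fit of 4 groups and 17 libraries. Genes were called at a Benjamini-Hochberg adjusted p under 0.05. A fold change on this scale understates the change of low genes. Adjusted p values of genes in the text come from this fit, and ± after a log2 change is the SE and after a mean the SD. Targets were compared with exact permutation tests. Tables were prepared with Python 3.11.15, and coordinates come from the RefSeq annotation of WBcel235, which matched 26780 genes.

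The groups, gene lists and tests were chosen with earlier results of these data known, and some lists overlap. Genes named by rule were both targets, the 12 highest and 12 lowest called changes (mean of at least 10 FPKM in the higher group, groups not overlapping), up to 4 called members of each list or else the member with the smallest adjusted p, and the 6 smallest adjusted p of the interaction; the text gives a selection of these, made after their values were seen. Replicates are labelled biological, with no batch label. Alternatives were other pseudocounts, filters, scalings, eBayes settings, a covariate, a replicate block and left-out libraries.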

Additional observations from a re-analysis of the deposited data

Results flagged for a closer look

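In groups of 4 libraries, a value was singled out where its gap to the nearest other value passed Dixon's 95% critical value for 4 values. This gave 19 of 186 tests, and chance gives about 1 in 20. Most concerned replicate 4. The library labelled hsf-1 replicate 4 stood apart by its 10745 detected genes, its summed FPKM of 879309, its ash-2 level of 5.57 FPKM, its lipl-5 level of 53.5 FPKM and its medians for C-type lectins (-0.46), H3K4 methylation genes (-1.401) and hedgehog-related genes (0.27), all medians being log2 values relative to L4440. ash-2 + hsf-1 replicate 4 stood apart by the share of its 10 highest genes (11.01%), by its medians for sperm markers (0.048), numbered collagens (0.064) and vitellogenins (-2.50), and by its levels of gsp-3 (21.5 FPKM) and lpr-6 (9.32 FPKM).

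Replicate 3 stood apart for fewer genes. In ash-2 + hsf-1 it had 49.2 FPKM of ilys-2, 96.8 FPKM of col-97, 338 FPKM of dod-19 and 6.75 FPKM of sod-3. In hsf-1 it had 297 FPKM of col-17 and 40.7 FPKM of myo-2.

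Limma's interaction term was called for some of the genes described. On the log2 scale it was 1.31 for ilys-2, 2.33 for spp-9, -2.34 for tts-2, -2.42 for sqt-3 and -2.13 for cut-2. It was -2.12 for lpr-6, -1.63 for bus-5, -1.65 for F46C5.1 and -1.80 for hhat-1. Not all of these calls were stable: that of spp-9 held in 7 of 19 alternatives, bus-5 and F46C5.1 in 9 of 20 each and hhat-1 in 10 of 20.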

How the results depend on the processing

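Of 76 named genes 64 were called, 41 of them under all alternatives run, and 0 changed direction. The main counts were 168 higher, 1102 lower and 14 in the interaction. Fitting the 8 libraries alone gave 19 higher and 399 lower and ended 20 named calls; a filter of 5 FPKM gave 111 and 559, with fewer genes tested. Quantile normalization gave 668 higher and 78 in the interaction; median-of-ratios scaling gave 279 and 45 and ended 13 named calls. With detected genes as covariate, where the median change of all genes moved to 0.15, there were 2949 higher, 1686 lower and 196 in the interaction. Leaving out 4 few-detected libraries gave 328, 1931 and 5; the 3 libraries, chosen after seeing the data, gave 342 higher and 6 in the interaction; the 2 libraries gave 3 in the interaction, a pseudocount of 0.1 gave 9 and no filter gave 8. Where these alternatives moved a count, the cause was not tested. Leaving out single libraries gave 88 to 301 higher, 703 to 1925 lower and 4 to 10 in the interaction, with a median change of all genes of -0.27 without hsf-1 replicate 4. The difference in FPKM was -8.53 to -4.16 for ash-2 and -4.47 to -1.52 for hsf-1. With a replicate block the counts were 184 higher, 1118 lower and 7 in the interaction; the deviations of same-numbered libraries from their group means correlated at 0.44, 0.63, -0.27 and 0.25, so not all were over 0.1 and the numbers were not taken to pair the samples; that 3 of 4 correlated best with their own number is a hint from the data, not the design. The block used the titles' numbers; replicate 4 of ash-2 + hsf-1 and of hsf-1 has number 5 in the table's column names, and a block on those was not run. No fragment counts were used, so low FPKM values carry an unknown counting error.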

Other observations

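Several other gene families were called in small numbers in ash-2 + hsf-1 against hsf-1. Of 214 F-box, MATH and BATH genes, which include substrate adaptors of ubiquitin ligases, 8 were higher and 6 lower (3.74% and 2.80%, beside 1.28% and 8.42% of all genes). Leaving out single libraries gave 3 (without ash-2 + hsf-1 replicate 2 or hsf-1 replicate 3) to 12 (without ash-2 + hsf-1 replicate 4) higher. The lower counts ran from 2 (without hsf-1 replicate 3) to 17 (without hsf-1 replicate 4). Quantile normalization gave 37 higher and the detected gene covariate 65, beside 5.11% and 22.5% of all genes. Of 49 transthyretin-like genes 5 were lower (10.2%) and 1 higher, with 1 lower without hsf-1 replicate 1, 2 without hsf-1 replicate 2 or 3 or ash-2 + hsf-1 replicate 3, 3 without ash-2 + hsf-1 replicate 1 and 14 without hsf-1 replicate 4. Of 36 genes of nematode-specific peptide families 5 were lower (13.9%) and 2 higher, with 3 lower and 1 higher without hsf-1 replicate 2, and 1 higher without hsf-1 replicate 1 or 3. Of 55 abu and pqn genes, which encode glutamine- and asparagine-rich proteins, 5 were lower (9.09%) and 0 higher; 0 were lower without hsf-1 replicate 3, 1 without hsf-1 replicate 1 and 2 without ash-2 + hsf-1 replicate 1, 2 or 3. In ash-2 against L4440, where 15.5% of all genes were lower, 16 were lower and 1 higher. Of 144 nuclear hormone receptors 1 was higher and 0 lower, while 118 had a log2 change below 0, with a median of -0.26. Without hsf-1 replicate 4, when 14.7% of all genes were lower, 12 were lower. With the detected gene covariate, which called 22.5% of all genes higher, 18 were higher. Cytosolic ribosomal protein genes had 2 lower and 0 higher of 81. With that covariate, which called 12.9% of all genes lower, 20 were lower. The lower count was 1 without hsf-1 replicate 1 or 4. It was 0 without replicate 1 or 2 of ash-2 + hsf-1 or replicate 2 or 3 of hsf-1. It was also 0 after median-of-ratios scaling, or with eBayes without trend and robust.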
